A study of Homo sapiens with 18 samples.

Results

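The interleukin-1 (IL-1) family genes described here are 9 of the 60683 genes in the count table, namely the ligands IL1A, IL1B, IL36G, IL18 and IL33, the antagonist IL1RN, and the receptor genes IL1RAP, IL1RL1 and IL1R2. Their rows were found by symbol, through the Ensembl identifiers. All 9 were in the table, and all 9 had enough counts to be among the 18159 genes tested. Cal27, an established human tongue carcinoma line of squamous type, was grown for 24 hours in high-glucose DMEM, in glucose-deprived medium, or in high-glucose DMEM to which 5 mM of the glycolysis inhibitor 2-deoxyglucose (2-DG) had been added. In each medium 3 libraries received recombinant human CGRP at 10 nM and 3 received control medium, so that 18 libraries fell into 6 groups of 3 independent repetitions. CGRP, calcitonin gene-related peptide, is a neuropeptide that sensory nerve endings release. The arms carry the codes TG and capTG, which the series text reads as CGRP and control, whereas the protocol for growing the cells names only "different CM". One cell line was used, and RNA came from whole cultures, in which fewer cells expressing a gene and less of its RNA per cell cannot be told apart.

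IL1A and IL1B encode IL-1alpha and IL-1beta, which bind the receptor IL1R1. The accessory chain IL1RAP completes that receptor, and MYD88, IRAK kinases and NF-kB carry the signal to inflammatory genes. IL1RN blocks IL1R1 without signalling, and IL1R2 binds IL-1 as a decoy. IL-18, IL-33 and IL-36gamma signal through related receptors, of which ST2, the product of IL1RL1, is the receptor of IL-33. IL-1beta and IL-18 are made as precursors that caspase-1 cleaves, whereas IL-1alpha and IL-33 are stored in epithelial cells and released on damage, so RNA levels do not measure active cytokine.

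Among the 9 genes, IL1A and IL1B fell with CGRP in every medium and the antagonist IL1RN rose with it in deprived medium, so the upstream sequences of these 3 genes are shown. Each line is the 250 bases before the transcription start, read 5′ to 3′ on the gene's strand, from RefSeq on GRCh38.p14, with matches to a searched motif in capitals. IL1A lies on the minus strand at chr2:112784494-112784743, IL1B on the minus strand at chr2:112836780-112837029, and IL1RN on the plus strand at chr2:113117721-113117970. IL1A had 2 RefSeq windows and IL1RN 3, and the start farthest upstream was taken for both.
IL1A: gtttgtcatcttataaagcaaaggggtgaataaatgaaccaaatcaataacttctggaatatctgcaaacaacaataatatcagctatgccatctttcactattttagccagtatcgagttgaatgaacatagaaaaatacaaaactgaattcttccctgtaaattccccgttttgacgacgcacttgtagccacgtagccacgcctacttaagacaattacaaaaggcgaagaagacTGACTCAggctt
IL1B: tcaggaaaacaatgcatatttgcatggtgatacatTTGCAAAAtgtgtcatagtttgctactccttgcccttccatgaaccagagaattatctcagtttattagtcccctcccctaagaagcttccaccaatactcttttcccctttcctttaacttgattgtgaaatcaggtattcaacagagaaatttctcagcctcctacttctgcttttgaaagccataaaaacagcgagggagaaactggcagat
IL1RN: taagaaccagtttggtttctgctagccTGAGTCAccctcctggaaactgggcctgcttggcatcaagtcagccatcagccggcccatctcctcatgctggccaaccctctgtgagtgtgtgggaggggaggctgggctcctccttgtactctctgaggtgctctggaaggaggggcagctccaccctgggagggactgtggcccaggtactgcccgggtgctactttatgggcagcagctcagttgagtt
The capitals mark an AP-1 site (TGANTCA) 12 to 6 bases before the IL1A start and 223 to 217 bases before the IL1RN start, and the core of a C/EBP site (TTGCNNAA) 215 to 208 bases before the IL1B start. The other IL1A window, not shown, held AP-1 matches 105 to 99 and 55 to 49 bases before its own start. AP-1, C/EBP, NF-kB and cAMP response element (TGACGTCA) motifs were searched on both strands, because CGRP receptors raise cAMP and the other factors are textbook regulators of IL-1 genes. The NF-kB motif was searched by its consensus, and no searched motif overlapped another in these windows. Over 35116 promoter windows of the same length, 6.57% held an AP-1 match, 9.05% a C/EBP core, 9.96% an NF-kB match and 1.65% a cAMP response element. RefSeq windows were found for 8 of the 9 genes, and none of these held the cAMP response element as spelled. IL36G, at chr2:112977756-112978005 on the plus strand, held none of the 4 motifs. IL1R2 held an NF-kB match 125 to 116 bases before its start and IL1RL1 an AP-1 match 191 to 185 bases before. A match describes letters in a window, and no binding was measured.

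Libraries held 28.0M to 32.7M counts. The first principal component of log2 CPM (counts relative to library size) took 68.7% of the variance and the second 7.39%. Replicate 2 of deprived medium with CGRP, at -59.3, and replicate 2 of the 2-DG control, at -34.6, stood apart from all others on the second component, where the replicates of those 2 groups that remained lay between 9.78 and 14.8. Where leaving out these 2 libraries changed a call of the 9 genes, both versions are given. Changes are log2 fold changes ± SE from edgeR's quasi-likelihood test, with Benjamini-Hochberg adjustment over all genes tested and a threshold of 0.05, and levels are CPM after TMM scaling, as mean ± SD over 3 libraries. Scaling by total counts in place of TMM moved the median of all genes between deprived and high-glucose controls from 0.02 to -0.13 on the log2 scale, and the calls there from 5633 higher and 5378 lower to 4161 and 6784. The same change of scaling turned 1159 higher and 1195 lower calls with CGRP in deprived medium into 1467 and 750, 964 and 1252 in 2-DG medium into 1265 and 954, and 1451 and 1062 between the 2-DG and high-glucose controls into 961 and 1563. For the differences of the CGRP response from that in high glucose, it turned 164 positive and 118 negative calls into 194 and 81 for deprived medium, and 22 and 49 into 28 and 35 for 2-DG medium. It called the same number of the 9 genes, in each direction, in these 6 comparisons.

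IL1A, the ligand that epithelial cells store, was the most abundant of the 9 genes per exon length and fell with CGRP in every medium. In high glucose its level was 459.5, 472.4 and 469.2 CPM in control libraries and 232.1, 226.7 and 234.9 CPM with CGRP. In deprived medium it was 321.2, 319.9 and 315.0 CPM without and 185.5, 181.7 and 192.6 CPM with CGRP. In 2-DG medium it was 447.2, 443.3 and 443.1 CPM without and 266.1, 254.3 and 265.3 CPM with CGRP. Every CGRP library lay below every control library of its medium, and libraries of 1 group differed far less than the groups did. The log2 fold change was -1.01 ± 0.04 in high glucose (adjusted p = 1.4e-09), -0.77 ± 0.04 in deprived medium (adjusted p = 2.9e-08) and -0.76 ± 0.04 in 2-DG medium (adjusted p = 1.4e-08), which corresponds to 2.02-fold, 1.71-fold and 1.70-fold lower levels. Without CGRP, deprived medium lowered IL1A by 1.47-fold (log2 fold change -0.55 ± 0.04, adjusted p = 8.3e-09). The 2-DG controls lay below the high-glucose controls in all 3 libraries, at -0.07 ± 0.04, which did not pass the test (adjusted p = 0.3). From highest to lowest the group means were 467 ± 6.76 CPM in the high-glucose control, 445 ± 2.28 in the 2-DG control, 319 ± 3.26 in the deprived control, 262 ± 6.58 in 2-DG with CGRP, 231 ± 4.20 in high glucose with CGRP and 187 ± 5.54 in deprived medium with CGRP. No neighbours in that order overlapped.

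IL1B, the ligand that needs cleavage by caspase-1, also fell with CGRP in every medium but differed more between media. High-glucose control libraries held 427.8, 444.9 and 443.4 CPM and those with CGRP 255.4, 252.5 and 261.1 CPM. Deprived controls held 83.44, 74.89 and 77.04 CPM, and 53.74, 55.23 and 56.80 CPM were found with CGRP. The 2-DG controls held 404.1, 440.8 and 394.1 CPM, against 295.2, 272.3 and 292.8 CPM with CGRP. All 6 deprived libraries lay below all 12 others, and within each medium the arms did not overlap. With CGRP the log2 fold change was -0.78 ± 0.06 in high glucose (adjusted p = 5.2e-07), -0.51 ± 0.06 in deprived medium (adjusted p = 3.3e-05) and -0.53 ± 0.06 in 2-DG medium (adjusted p = 1.3e-05), or 1.71-fold, 1.42-fold and 1.44-fold lower. Deprivation without CGRP lowered IL1B by 5.59-fold (log2 fold change -2.48 ± 0.06, adjusted p = 7.3e-15). The 2-DG control did not pass the test against high glucose (-0.09 ± 0.06, adjusted p = 0.34), and its libraries overlapped those of high glucose.

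**Figure D1:**
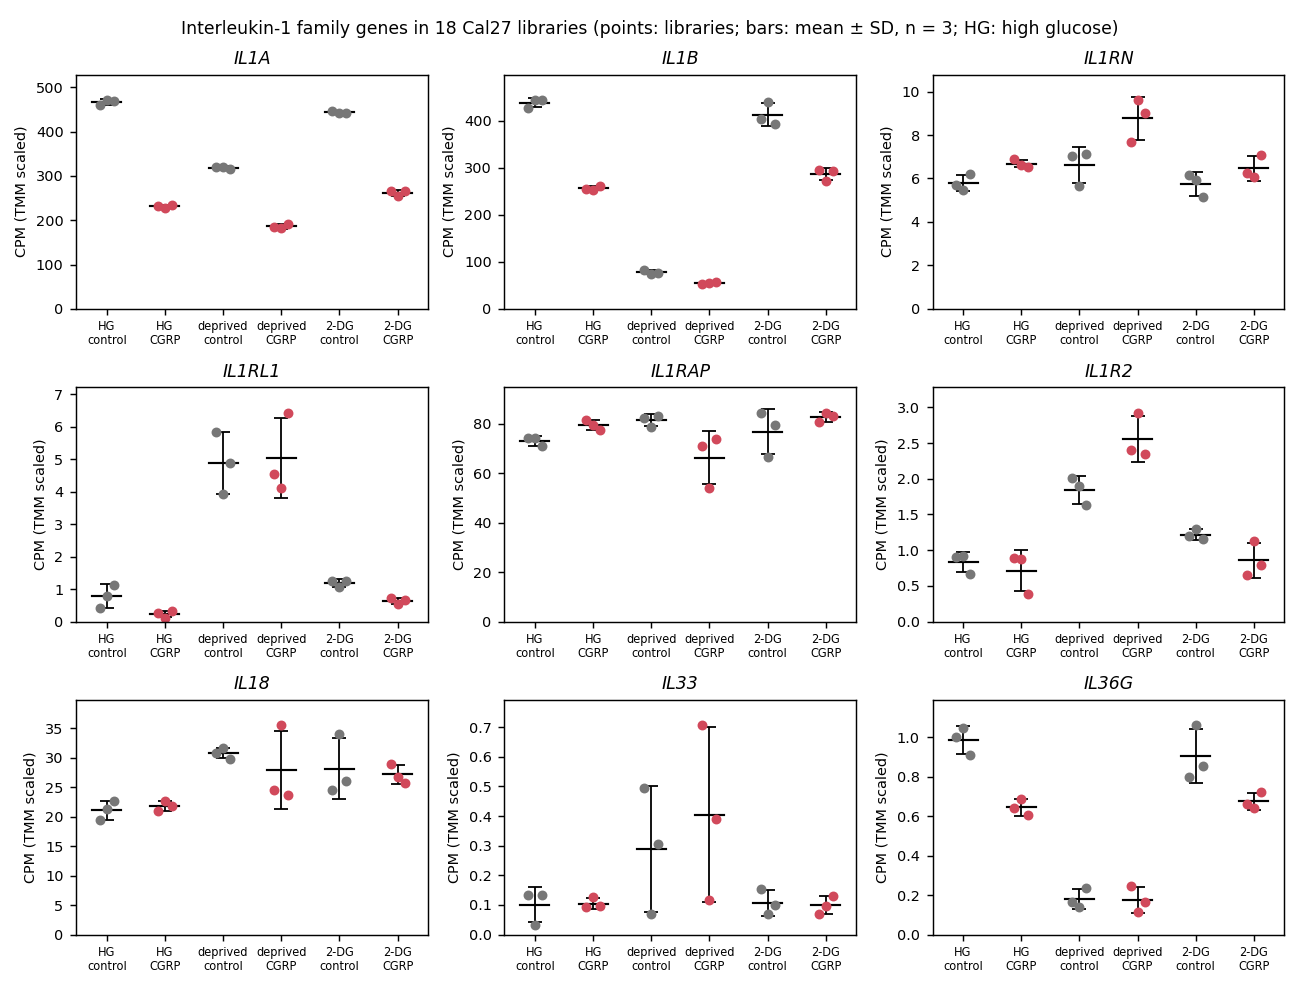
Level of each of the 9 genes in every library, in CPM after TMM scaling (vertical axes start at 0 and differ between panels), with groups along the horizontal axis. Points are libraries, grey for control and red for CGRP, and bars show mean ± SD of 3 libraries. IL1A and IL1B are lower with CGRP in all 3 media, and IL1B and IL36G are lowest in the deprived groups.

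The plot of levels by library shows that the 2 main ligands did not keep their proportion across media. Per kilobase of exon, IL1A stood at 220, 150 and 209 CPM per kb in the high-glucose, deprived and 2-DG controls, and IL1B at 142, 25.3 and 133 CPM per kb. Within a library, the ratio of IL1B to IL1A per kilobase was 0.644 ± 0.00496 for high-glucose and 0.169 ± 0.00886 for deprived controls. With CGRP the ratio was 0.760 ± 0.00499 in high glucose, 0.203 ± 0.00491 in deprived medium and 0.751 ± 0.0144 in 2-DG medium, against 0.637 ± 0.0390 in the 2-DG control. In each medium every library with CGRP had a higher ratio than every control library, so IL1A was lowered by a larger factor than IL1B.

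IL36G, the gene of the epithelial ligand IL-36gamma, was expressed at a low level and was lower in deprived medium. It counted 30, 33 and 27 reads in high-glucose controls, 5, 4 and 7 in deprived controls and 26, 31 and 26 in 2-DG controls. Levels were 0.985 ± 0.0709, 0.180 ± 0.0518 and 0.905 ± 0.137 CPM, and the deprived controls lay below all others. The fall with deprivation was 5.38-fold (log2 fold change -2.43 ± 0.24, adjusted p = 1.8e-07), and no deprived library reached the cutoff of the low-count filter, which the gene passed through its 12 other libraries. With CGRP it counted 21, 22 and 19 reads in high glucose and 19, 20 and 22 in 2-DG medium. CGRP libraries lay below control libraries in both media, yet neither -0.61 ± 0.18 (adjusted p = 0.13) nor -0.42 ± 0.19 (adjusted p = 0.28) passed. In deprived medium, where CGRP libraries held 7, 3 and 5 reads, the arms overlapped.

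IL18, whose product is another substrate of caspase-1, was higher in deprived medium than in high glucose. High-glucose controls held 19.45, 21.23 and 22.67 CPM and deprived controls 30.81, 31.56 and 29.84 CPM, with no overlap. The log2 fold change was 0.54 ± 0.14 (1.46-fold, adjusted p = 0.0027). The 2-DG controls held 24.46, 33.99 and 25.96 CPM, all above high glucose, but 0.41 ± 0.14 did not pass (adjusted p = 0.056). The library at 33.99 CPM is one of the 2 that stood apart, and so is the highest of the deprived libraries with CGRP, which held 24.43, 35.47 and 23.66 CPM. With all libraries the change with CGRP in deprived medium was -0.14 ± 0.14 (adjusted p = 0.52). Without those 2 libraries it was -0.34 ± 0.06 (adjusted p = 2.2e-05, against 2.2e-05 to 0.87 over all alternatives), and 2-DG against high glucose became 0.25 ± 0.06 (adjusted p = 0.0015, range 0.0015 to 0.26). The 2-DG and deprived controls overlapped (-0.13 ± 0.13, adjusted p = 0.44), and without those libraries their difference was -0.26 ± 0.06 (adjusted p = 0.00012, range 0.00012 to 0.85).

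IL33, the ligand of ST2, was close to the limit of detection. It counted 1 to 5 reads in each of the 12 libraries outside deprived medium, 15, 2 and 9 in deprived controls and 20, 3 and 12 in deprived medium with CGRP. It passed the low-count filter through 3 of 18 libraries, all of them deprived. The difference between deprived and high-glucose controls, 1.53 ± 0.71, did not pass (adjusted p = 0.074), and the libraries overlapped. It passed in 6 of the 25 alternative fits, among them the fit without the 2 libraries that stood apart (adjusted p = 0.021, range 0.016 to 0.38), with a log2 fold change of 0.87 to 1.95 when single libraries were left out.

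IL1RN, which encodes the receptor antagonist, rose with CGRP in deprived medium and lay between 5.139 and 9.628 CPM in all libraries. In high glucose it stood at 5.704, 5.458 and 6.188 CPM without and 6.884, 6.629 and 6.55 CPM with CGRP. In deprived medium the libraries held 7.044, 5.65 and 7.136 CPM without and 7.662, 9.628 and 9.001 CPM with CGRP. In 2-DG medium they held 6.175, 5.916 and 5.139 CPM without and 6.249, 6.046 and 7.101 CPM with CGRP. The arms did not overlap in high glucose or in deprived medium and overlapped in 2-DG medium. The change passed in deprived medium (log2 fold change 0.41 ± 0.11, 1.32-fold, adjusted p = 0.022), while 0.21 ± 0.11 in high glucose (adjusted p = 0.41) and 0.17 ± 0.11 in 2-DG medium (adjusted p = 0.38) did not pass. The call in deprived medium was lost in a fit of only the 2 groups compared (adjusted p = 0.21), without replicate 3 of deprived medium with CGRP (0.054) and without replicate 2 of the deprived control (0.099), and was 0.35 ± 0.11 without the 2 libraries that stood apart (adjusted p = 0.011, range over all alternatives 0.0083 to 0.21).

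Set against the antagonist, both ligands were lower with CGRP. Per kilobase of exon, a high-glucose control library held 124 ± 8.23 times as many IL1A as IL1RN counts and a library with CGRP 53.0 ± 1.73 times. The ratio was 74.8 ± 10.5 and 33.0 ± 4.09 in deprived medium, and 119 ± 11.3 and 62.3 ± 4.40 in 2-DG medium. For IL1B to IL1RN it was 80.0 ± 5.27 and 40.3 ± 1.48 in high glucose, 12.6 ± 1.30 and 6.68 ± 0.673 in deprived medium, and 75.9 ± 6.27 and 46.8 ± 3.19 in 2-DG medium. Control and CGRP libraries did not overlap in any medium for either ratio, and IL1A and IL1B transcripts outnumbered those of the antagonist in every group.

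**Figure D2:**
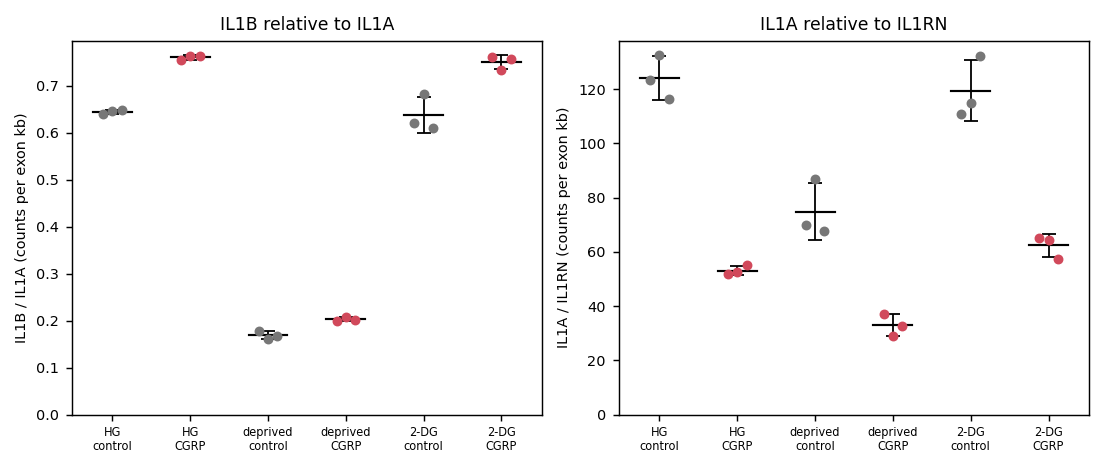
Ratio of IL1B to IL1A (left) and of IL1A to IL1RN (right) within each library, from counts per kilobase of exon, with groups along the horizontal axis. Points are libraries, and bars show mean ± SD of 3 libraries. The left panel falls from 0.644 to 0.169 between the high-glucose and deprived controls, and the right panel from 124 to 53.0 between the arms in high glucose.

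IL1RAP, the accessory chain shared by the receptors of IL-1, IL-33 and IL-36, stood at 5.74 to 7.16 CPM per kb of exon in the 6 groups. Its group means lay between 66.3 ± 10.7 CPM in deprived medium with CGRP and 82.8 ± 1.98 CPM in 2-DG medium with CGRP. In deprived medium the control libraries held 82.62, 78.75 and 83.09 CPM and those with CGRP 70.97, 54.11 and 73.86 CPM. All CGRP libraries were lower, and the lowest, at 54.11 CPM, is one of the 2 that stood apart. The change of -0.30 ± 0.10 did not pass (adjusted p = 0.054). Without the 2 libraries it was -0.16 ± 0.04 (adjusted p = 0.0021, range 0.0021 to 0.35), a smaller difference with a smaller error. In high glucose and 2-DG medium the changes with CGRP were 0.12 ± 0.10 (adjusted p = 0.68) and 0.11 ± 0.10 (adjusted p = 0.56). The change in high glucose was 0.13 ± 0.04 without the 2 libraries (adjusted p = 0.008, range 0.0077 to 0.88). Deprivation gave 0.16 ± 0.10 (adjusted p = 0.18), and 0.13 ± 0.04 without the 2 libraries (adjusted p = 0.0017, range 0.0002 to 0.99), while the sign turned when scaling by total counts.

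IL1RL1, the gene of the IL-33 receptor ST2, was higher in deprived medium. It held 0.434, 0.793 and 1.143 CPM in high-glucose controls, 5.826, 3.927 and 4.893 CPM in deprived controls and 1.26, 1.06 and 1.252 CPM in 2-DG controls. The deprived libraries lay above all others, 6.16-fold above the high-glucose control (log2 fold change 2.62 ± 0.26, adjusted p = 2.4e-07). With CGRP in high glucose the libraries held 0.275, 0.125 and 0.318 CPM, from 9, 4 and 10 reads against 13, 25 and 34 in the control. All 3 were lower and the fall of 1.70 ± 0.42 on the log2 scale passed (adjusted p = 0.027). That call was lost on leaving out replicate 1, 2 or 3 with CGRP or replicate 2 or 3 of the control, with an adjusted p of 0.053 to 0.15. In 2-DG medium the libraries with CGRP held 0.729, 0.547 and 0.658 CPM, all below the control, and -0.89 ± 0.32 did not pass (adjusted p = 0.089). It was -0.96 ± 0.33 without the 2 libraries that stood apart (adjusted p = 0.027, range 0.027 to 0.25). In deprived medium the CGRP libraries, at 4.555, 4.121 and 6.434 CPM, overlapped the controls (0.05 ± 0.21, adjusted p = 0.9). Exons of IL1RL1 overlap those of IL18R1, which had a median of 334.5 reads per library, on the same strand, so reads may have been divided between them and the IL1RL1 values are uncertain. IL18R1, a receptor chain of IL-18, held 10.8 ± 0.344 CPM in high-glucose and 12.4 ± 0.604 CPM in deprived controls.

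IL1R2, the decoy receptor, was a low-level gene that was also higher in deprived medium. High-glucose controls held 0.901, 0.920 and 0.673 CPM, deprived controls 2.008, 1.895 and 1.631 CPM and 2-DG controls 1.198, 1.3 and 1.153 CPM. The 3 control groups did not overlap. Deprived medium exceeded high glucose by 2.21-fold (log2 fold change 1.14 ± 0.24, adjusted p = 0.00054). With CGRP the libraries held 2.401, 2.927 and 2.34 CPM in deprived medium, all above the control, and 0.660, 1.126 and 0.789 CPM in 2-DG medium, all below it. Neither 0.46 ± 0.20 (adjusted p = 0.15) nor -0.49 ± 0.25 (adjusted p = 0.24) passed, and the test of their difference gave -0.96 ± 0.32 (adjusted p = 0.12). In high glucose the arms overlapped (-0.21 ± 0.27, adjusted p = 0.84).

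Counted over the 9 genes, 0 rose and 3 fell with CGRP in high glucose (IL1A, IL1B and IL1RL1), where 2.04% of all genes tested rose and 2.29% fell. In deprived medium 1 rose (IL1RN) and 2 fell (IL1A and IL1B), beside 6.38% and 6.58% of all genes. In 2-DG medium 0 rose and 2 fell (IL1A and IL1B), beside 5.31% and 6.89%. IL1A and IL1B were thus called in all 3 media, and they remained called in each of the 25 alternative fits of every medium. The highest adjusted p over these fits was found in deprived medium, at 0.018 for IL1A and 0.049 for IL1B, the latter just under the threshold. Without the 2 libraries that stood apart, the log2 fold changes of IL1A were -0.74 ± 0.03 in deprived and -0.76 ± 0.03 in 2-DG medium, and those of IL1B -0.49 ± 0.04 and -0.47 ± 0.03. The median log2 fold change of the 9 was -0.21, -0.03 and -0.42 in the 3 media, and that of all genes tested -0.01, 0.01 and -0.01. The 3 comparisons used separate control libraries.

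**Figure D3:**
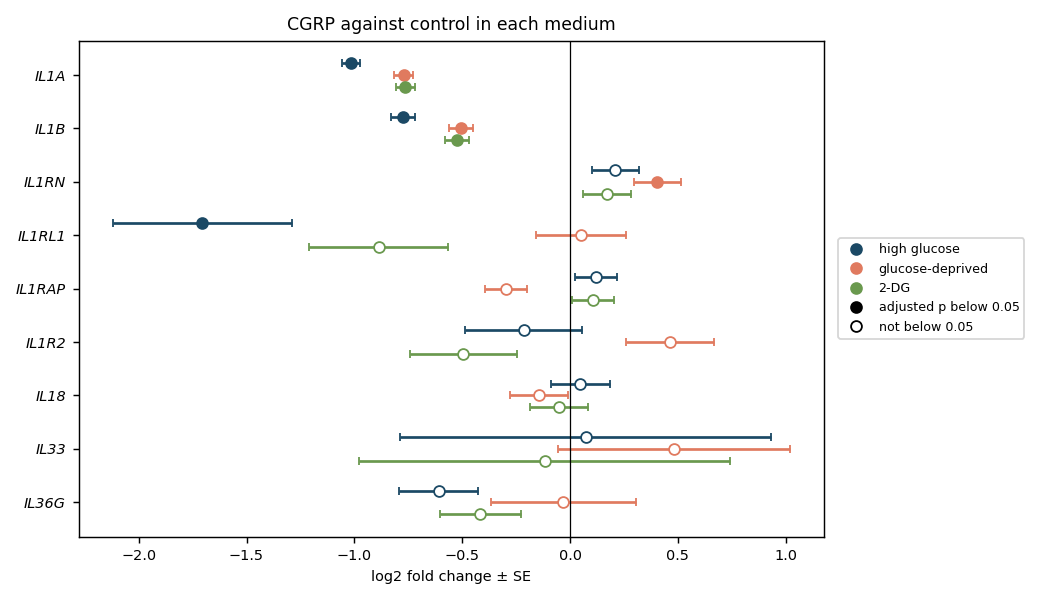
Log2 fold change (horizontal axis) of CGRP against control for each of the 9 genes, by medium. Points are edgeR estimates with SE bars, filled where the adjusted p was below 0.05. IL1A and IL1B are filled and negative in all 3 media, from -0.51 to -1.01, IL1RL1 only in high glucose and IL1RN, with a positive value, only in deprived medium.

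Glucose deprivation changed 6 of the 9 genes against high glucose without CGRP. IL1A, IL1B and IL36G fell and IL18, IL1RL1 and IL1R2 rose, so that 3 ligands fell while 1 ligand and 2 receptor genes rose. Among all genes tested 31.0% rose and 29.6% fell in this comparison, and the share of the 9 genes that moved is to be read against that. The medians were 0.19 for the 9 genes and 0.02 for all genes. All 6 calls remained in each of the 25 alternative fits. The 2-DG control differed from high glucose in 0 of the 9 genes by edgeR's adjusted p, beside 7.99% of all genes that rose and 5.85% that fell. An unadjusted p under 0.05 was found for 2 (IL18 and IL1R2), beside 4792 of the 18159 genes tested. DESeq2 called 2 of the 9 (IL18 as higher and IL1A as lower) and 2761 of all genes. Without the 2 libraries that stood apart 4 of the 9 were called there, IL18 as given above, IL1RAP (0.16 ± 0.04, adjusted p = 0.0016, range 0.0016 to 1), IL1A (-0.08 ± 0.03, adjusted p = 0.041, range 0.041 to 0.7) and IL1B (-0.14 ± 0.03, adjusted p = 0.0014, range 0.0014 to 0.67). In that fit 3345 of the 18159 genes tested rose and 2657 fell, and the 4 are to be read against that. Against the deprived control, the 2-DG control was higher in IL1A (0.48 ± 0.04, adjusted p = 5.4e-08), IL1B (2.40 ± 0.06, adjusted p = 1.7e-14) and IL36G (2.30 ± 0.24, adjusted p = 4.7e-07). It was lower in IL1RL1 (-2.03 ± 0.25, adjusted p = 2.5e-06) and IL1R2 (-0.60 ± 0.22, adjusted p = 0.03), where 28.9% of all genes rose and 28.6% fell. The deprived and the 2-DG controls share neither libraries nor treatment, but the comparisons between media share control libraries, so their values stand side by side and are not independent of each other. With scaling by total counts, the 5256 rising and 5191 falling genes of the 2-DG against the deprived control became 6207 and 4207. The IL1R2 call was lost with that scaling (adjusted p = 0.058), with no low-count filter (0.051), without replicate 1 or 2 of the deprived control and without replicate 1 or 3 of the 2-DG control, over a range of 0.0085 to 0.11.

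**Figure D4:**
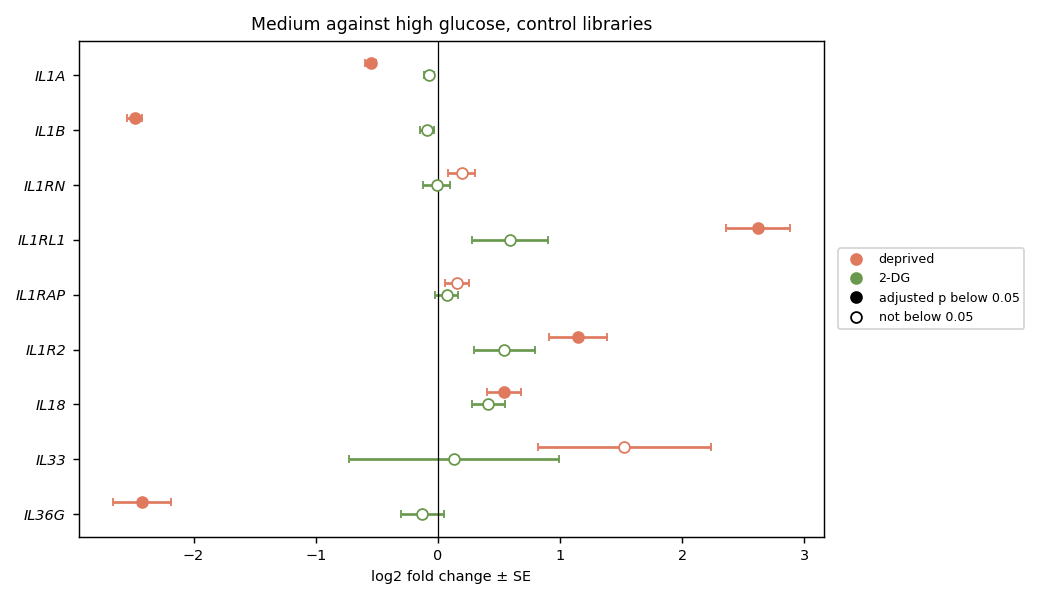
Log2 fold change (horizontal axis) of the deprived and the 2-DG control against the high-glucose control for each of the 9 genes. Points are edgeR estimates with SE bars, filled where the adjusted p was below 0.05. For deprivation, IL1B (-2.48) and IL36G (-2.43) lie farthest to the left and IL1RL1 (2.62) farthest to the right, while no 2-DG point is filled.

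Whether the response to CGRP depended on the medium was tested as a difference of log2 fold changes, and 0 of the 9 genes passed for any pair of media. For deprived minus high glucose, 0.903% of all genes were called with a positive and 0.65% with a negative difference. There 4 of the 9 and 2164 of all 18159 genes had an unadjusted p under 0.05, and DESeq2 called 3 and 519. For 2-DG minus high glucose the shares were 0.121% and 0.27%. At an unadjusted p under 0.05 stood 2 of the 9 and 1549 of all genes, and DESeq2 called 2 and 228. For 2-DG minus deprived the shares were 1.69% and 2.18%. Here 3 of the 9 and 3224 of all genes had an unadjusted p under 0.05, and DESeq2 called 0 and 1081. The fall of IL1A was smaller by 0.24 ± 0.06 in deprived medium (adjusted p = 0.055) and by 0.25 ± 0.06 in 2-DG medium (adjusted p = 0.095) than in high glucose. That of IL1B was smaller by 0.27 ± 0.08 (adjusted p = 0.12) and 0.25 ± 0.08 (adjusted p = 0.25). IL1RL1 gave 1.75 ± 0.47 for deprived minus high glucose (adjusted p = 0.081). Without the 2 libraries that stood apart the IL1A differences were 0.26 ± 0.04 (adjusted p = 1e-05, range 1e-05 to 0.51) and 0.25 ± 0.04 (adjusted p = 4.1e-05, range 4.7e-06 to 0.71). For IL1B they were then 0.27 ± 0.05 (adjusted p = 0.00046, range 0.00046 to 0.5) and 0.30 ± 0.05 (adjusted p = 4.2e-05, range 4.2e-05 to 0.85). For IL1RL1 the difference of deprived from high glucose was then 1.88 ± 0.44 (adjusted p = 0.0043, range 0.0043 to 0.25), and that of 2-DG from deprived medium went from -0.94 ± 0.38 (adjusted p = 0.21) to -1.14 ± 0.37 (adjusted p = 0.029, range 0.029 to 0.4). The differences of IL1A and IL1B were of similar size with and without the 2 libraries. Their calls depend on those libraries and on the test. With all 18 libraries, DESeq2 called both genes for deprived and for 2-DG medium minus high glucose. The differences of IL18 and IL1RAP changed in size as well on leaving out the 2 libraries. For deprived minus high glucose IL18 went from -0.19 ± 0.19 (adjusted p = 0.79) to -0.40 ± 0.08 (adjusted p = 0.00067, range 0.00067 to 1), and IL1RAP from -0.42 ± 0.14 (adjusted p = 0.17) to -0.29 ± 0.05 (adjusted p = 0.0002, range 0.0002 to 0.34). For 2-DG minus deprived IL18 went from 0.09 ± 0.19 (adjusted p = 0.82) to 0.45 ± 0.08 (adjusted p = 0.00011, range 0.00011 to 1), and IL1RAP from 0.40 ± 0.14 (adjusted p = 0.12) to 0.18 ± 0.06 (adjusted p = 0.023, range 0.023 to 0.3).

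Genes whose log2 CPM ran most like that of IL1A over the 18 libraries were CPT1A (Pearson r = 0.96), POLR3G (0.95), TYRO3 (0.95), ACSL3 (0.94) and HAUS6 (0.93), out of 12491 genes whose average log2 CPM reached 1. For IL1B they were NFE2L3, FHOD1, RFC3, CHST11 and GPR153, each at r = 0.99. IL1B ranked 412 in likeness to IL1A (r = 0.67), and IL1A ranked 3560 in likeness to IL1B. Ranked over the 6 group means instead, CPT1A, POLR3G, TYRO3, ACSL3 and HAUS6 came 4, 1, 16, 12 and 6 for IL1A. NFE2L3, FHOD1, RFC3, CHST11 and GPR153 came 6, 11, 67, 2 and 15 for IL1B, so the genes named depend on the measure. Both rankings are descriptions over libraries that share media and treatment. The 2 ligands thus followed different profiles although both fell with CGRP.

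The other genes of the pathway were taken from lists of ligands, receptors, processing enzymes, signalling proteins and IL-1 inducible genes. Of 6 other ligands and antagonists of the family 2 had enough counts to test, and of these IL36RN, the antagonist of the IL-36 receptor, fell with deprivation (-1.76 ± 0.30, adjusted p = 0.0001). IL36RN counted 23, 21 and 23 reads in high-glucose controls and 9, 3 and 7 in deprived controls. No deprived control reached the cutoff of the low-count filter, so the lower level was near the limit of detection. Of 7 other receptor genes 4 were tested. IL1R1, the signalling receptor of IL-1, held 16.5 ± 0.622 CPM in high-glucose and 9.67 ± 0.485 CPM in deprived controls, a fall of 0.77 ± 0.14 on the log2 scale (adjusted p = 0.00014). SIGIRR, an inhibitory member of the receptor family, rose 2.30-fold (adjusted p = 1.7e-07) and IL1RL2, the IL-36 receptor, by 1.49 ± 0.12 on the log2 scale (adjusted p = 2.2e-08). So the ligand gene IL36G and the receptor gene IL1RL2 moved in opposite directions with deprivation. IL1RL2 fell with CGRP in deprived (-0.69 ± 0.12, adjusted p = 0.0011) and 2-DG medium (-0.72 ± 0.13, adjusted p = 0.0014). In high glucose its change of -0.40 ± 0.14 did not pass (adjusted p = 0.13), and it was -0.39 ± 0.12 without the 2 libraries that stood apart (adjusted p = 0.021).

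Of 15 genes of inflammasomes and cytokine processing 13 were tested. With CGRP 1 rose and 1 fell in high glucose (of all genes 2.04% and 2.29%), 2 and 2 in deprived medium (6.38% and 6.58%), and 1 and 1 in 2-DG medium (5.31% and 6.89%). Without the 2 libraries that stood apart, these were 5 and 3, 2 and 4, and 5 and 2. Of all 18159 genes tested 1695 rose and 1824 fell, 2252 and 3028, and 2276 and 2957 in that fit. In each medium CAPN1, a calpain subunit of the enzyme family that cleaves the IL-1alpha precursor, rose (0.25 ± 0.04, 0.15 ± 0.04 and 0.19 ± 0.04, adjusted p = 0.0021, 0.033 and 0.0075). GSDME, a pore-forming gasdermin, fell in each (-0.20 ± 0.05, -0.26 ± 0.05 and -0.27 ± 0.05, adjusted p = 0.035, 0.0029 and 0.002). PYCARD, the adaptor ASC of inflammasomes, rose in deprived medium (0.82 ± 0.16, adjusted p = 0.0034), where the library that stood apart held 23.65 CPM and the other two 15.01 and 13.78, and without the 2 libraries by 0.56 ± 0.08. With deprivation 5 rose and 5 fell of the 13, beside 31.0% and 29.6% of all genes. CASP1, which cleaves IL-1beta and IL-18, fell (-0.69 ± 0.10, adjusted p = 1.6e-05), and so did AIM2, a DNA sensor of inflammasomes (-2.64 ± 0.11, adjusted p = 5.3e-12). CASP5, an inflammatory caspase, counted 3 reads over the 3 high-glucose controls and 431 over the deprived controls, a ratio of 132 with a 95% counting interval of 45.0 to 644, and 0 reads in the 2-DG controls. It is 1 of the 5 genes counted as risen, with 0 to 2 reads in each library outside deprived medium, so it passed the low-count filter through deprived libraries alone.

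All 19 genes of IL-1 receptor signalling were tested, and their counts stand beside the shares of all genes given above. In high glucose 0 rose and 1 fell, IRAK2 (-0.39 ± 0.08, adjusted p = 0.0087). In deprived medium 2 fell, IRAK1 (-0.31 ± 0.04, adjusted p = 0.00013) and NFKB1 (-0.37 ± 0.08, adjusted p = 0.0042, -0.26 ± 0.04 without the 2 libraries), and in 2-DG medium IRAK1 (-0.19 ± 0.04, adjusted p = 0.006) and IRAK2 (-0.26 ± 0.08, adjusted p = 0.044). Leaving out the 2 libraries that stood apart, 1 rose and 3 fell in high glucose, 1 and 2 in deprived medium, and 2 and 4 in 2-DG medium. These stand beside the counts of all genes in that fit, as given for the inflammasome genes. IRAK1 and IRAK2 encode kinases bound to the receptor complex. With deprivation 5 rose and 6 fell, beside 31.0% and 29.6% of all genes, among them IRAK1 (0.59 ± 0.04, adjusted p = 2.9e-09) and IRAK2 (-0.98 ± 0.08, adjusted p = 2.7e-08).

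Of 22 genes that IL-1 is known to induce 20 were tested. With CGRP 0 rose and 3 fell in high glucose, 1 rose and 11 fell in deprived medium and 1 rose and 3 fell in 2-DG medium, with list medians of -0.01, -0.30 and -0.04. Of all genes 2.04% rose and 2.29% fell, 6.38% and 6.58%, and 5.31% and 6.89% in the same media, with medians of -0.01, 0.01 and -0.01. Without the 2 libraries that stood apart 3 rose and 6 fell, 3 rose and 14 fell, and 4 rose and 4 fell. In that fit 1695 of the 18159 genes tested rose and 1824 fell, 2252 and 3028, and 2276 and 2957. CSF2, the gene of the growth factor GM-CSF, held 23.8 ± 0.429 CPM in the high-glucose control and 7.72 ± 0.484 CPM with CGRP (-1.63 ± 0.11, adjusted p = 2.1e-07), and fell by 1.06 ± 0.11 and 1.86 ± 0.10 on the log2 scale in deprived and 2-DG medium. LIF, a cytokine of the IL-6 family, fell in all 3 media as well (-0.84 ± 0.07, -0.73 ± 0.07 and -0.98 ± 0.07), and CSF3, the gene of G-CSF, fell in high glucose (-1.48 ± 0.30, adjusted p = 0.0082) and 2-DG medium (-1.43 ± 0.23, adjusted p = 0.00065). IL6 fell in deprived medium (-1.35 ± 0.10, adjusted p = 1.6e-06), and the difference of that change from the one in high glucose passed as well (-0.91 ± 0.16, adjusted p = 0.0087). MMP1, a collagenase, rose in deprived (0.59 ± 0.13, adjusted p = 0.0064) and 2-DG medium (0.70 ± 0.13, adjusted p = 0.002). With deprivation 7 rose and 13 fell of the 20, beside 31.0% and 29.6% of all genes, with a median of -1.55 beside 0.02 for all genes. NFKBIA, the feedback inhibitor of NF-kB, fell (-2.17 ± 0.09, adjusted p = 6.1e-12) and ICAM1, an adhesion molecule, too (-1.63 ± 0.05, adjusted p = 8.9e-14). IL6 (2.94 ± 0.11, adjusted p = 2.1e-12) and LCN2, an iron-binding defence protein (2.10 ± 0.13, adjusted p = 1e-09), rose, so the list did not move one way.

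**Figure D5:**
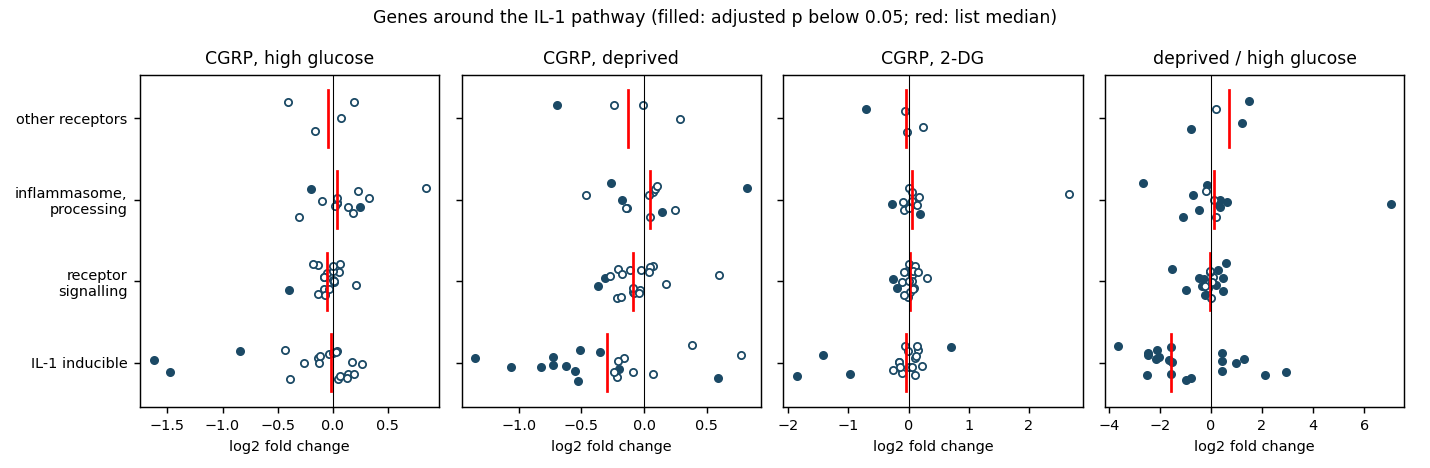
Log2 fold change (horizontal axes, which differ) of the tested genes of 4 lists (rows) in 4 comparisons (panels). Points are genes, filled where the adjusted p was below 0.05, and red lines are list medians. With deprivation the IL-1 inducible genes have a median of -1.55, with 7 genes to the right of 0, and the point farthest right in that panel is CASP5, with 3 reads over the high-glucose controls.

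Markers of squamous epithelium, 6 genes, summed to 3931 to 4038 and 3992 to 4029 CPM in high glucose without and with CGRP, 2800 to 2938 and 2449 to 2793 in deprived medium, and 3676 to 4237 and 3786 to 3966 in 2-DG medium, with none at 0 in a whole group. With deprivation 1 of these 6 rose, the keratin KRT17 (0.71 ± 0.12, adjusted p = 7.3e-05). A fall was called for 3, among them the basal keratins KRT5 (-1.64 ± 0.06, adjusted p = 1.1e-12) and KRT14 (-2.10 ± 0.12, adjusted p = 2.3e-10). Those of leukocytes, 6 genes, summed to 2.19 to 2.44 CPM in the high-glucose control, 3.15 to 4.71 with CGRP, 0.0344 to 0.132 in the deprived control, 0.195 to 0.578 with CGRP, 1.85 to 2.11 in the 2-DG control and 3.23 to 4.37 with CGRP. PTPRC, CD3E and LYZ were at 0 in all deprived libraries, and PTPRC, the leukocyte antigen CD45, held 0.641 ± 0.160 CPM in 2-DG medium with CGRP, against 0.0111 ± 0.0193 CPM in the high-glucose control. Within 2-DG medium the log2 fold change of PTPRC with CGRP was 5.43 ± 0.70. PTPRC passed the low-count filter through the 2-DG libraries with CGRP alone. It was near the limit of detection in every other group, so the size of that change is uncertain. Fibroblast markers, 5 genes, summed to 24.3 to 25.7 and 24.7 to 27.3 CPM in high glucose without and with CGRP, 10.5 to 11.5 and 10.9 to 16.2 in deprived medium, and 17.1 to 18.7 and 23.0 to 24.2 in 2-DG medium, with DCN at 0 in the deprived and 2-DG controls. Endothelial markers, 4 genes, summed to 24.3 to 25.2 and 42.3 to 43.9, 1.79 to 2.63 and 3.12 to 3.87, and 21.2 to 25.1 and 39.4 to 43.6 CPM in the same order, mostly from CDH5, while KDR was at 0 in the 3 control groups. Leukocyte and endothelial sums were thus higher with CGRP, where IL1A and IL1B were lower, and low in deprived medium, where IL1B and IL36G were low and the squamous sum was lower too. The fibroblast sum was also low in deprived medium, and its arms overlapped except in 2-DG medium, where it was higher with CGRP. The part of these sums in the results was not tested.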

How the data were processed

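RNA of 18 Cal27 cultures was extracted with Trizol and sequenced on Illumina libraries, per the labels' protocols. The deposited table holds the authors' raw read count per Ensembl gene and library, per the file headers. Reads were aligned with HISAT2 2.0.4, per the submitters' processing notes, which name hg19 and GRCh38 without a role. The sources used here do not give the counter, annotation or strand setting. Symbols were found for 60370 identifiers. Exon lengths and overlaps came from GENCODE annotation and promoters from RefSeq.

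Genes were filtered with filterByExpr (at least 10 counts, at least 15 in total) and tested in edgeR 4.0.16 (R 4.3.3) on all 18 libraries, with 1 coefficient per group, TMM scaling and 12 residual degrees of freedom. The biological coefficient of variation was 9.44%. The test was also run on simulated data. Principal components and likeness used log2 CPM with a pseudocount of 2. Replicate pairs differed by more than sampling noise. The chi-square per degree of freedom was 36.0 to 90.1 for pairs with a library that stood apart and 1.43 to 5.61 for the others. Groups came from the sample titles.

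The 9 genes and the lists were chosen with earlier results of these data known. All 9 are named in each comparison. Of other lists, up to 3 genes per direction with the smallest adjusted p are named where they help, with the 5 genes most like IL1A and IL1B. List genes beyond that rule (IL18R1) were chosen after their values were seen. Alternatives were RLE size factors, scaling by total counts, no low-count filter, the Wald test of DESeq2 1.42.0, only the groups compared, a replicate block, each library left out, and both libraries that stood apart left out. The counting interval of CASP5 covers counting error only.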

Additional observations from a re-analysis of the deposited data

How the results depend on the processing

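Most values for the 9 genes kept their direction and their side of the threshold, 1887 of 2012 values under an alternative, and low counts limit IL33, IL36G, IL1RL1 and IL1R2. DESeq2 gave no adjusted p for IL33 in 7 comparisons, IL36G in 4, and IL1R2 and IL1RL1 in 1 each. The cause of the shifts below was not tested.

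Genes called with CGRP numbered 787 in high glucose, 2354 in deprived and 2216 in 2-DG medium. With no low-count filter 474 and 1463 were called in the first 2. A fit of only the groups compared gave 3641, 131 and 1156, and leaving out both libraries that stood apart 3519, 5280 and 5233. Between the 2-DG and high-glucose controls (2513) these gave 1499 and 6002. For the differences between media (282 for deprived minus high glucose, 71 for 2-DG minus high glucose, 702 for 2-DG minus deprived), no filter gave 163, 30 and 430, only the groups compared 161, 148 and 209, without both libraries 2476, 1088 and 3220, and DESeq2 519, 228 and 1081.

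Of the 9 genes, 5 in place of 3 were called with CGRP in deprived medium without both libraries. Between the 2-DG and high-glucose controls, 0 became 4 without both libraries and 2 by DESeq2. For the differences in the order above, 0, 0 and 0 became 5, 2 and 3 without both libraries and 3, 2 and 0 by DESeq2, and 1 for 2-DG minus high glucose with only the groups compared.

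Within the comparisons of 2 groups, same-numbered replicates did not deviate together (correlations from -0.15 to 0.054). The 2 libraries that stood apart are both replicate 2 and lay on the same side of the second component (-59.3 and -34.6). Their groups were not set against each other, so whether the numbers pair those samples was not tested. With a replicate block, 1 of the 9 genes was called between the 2-DG and high-glucose controls and 1 for deprived minus high glucose.

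Single libraries left out gave 361 to 1566, 1290 to 2726 and 1463 to 3856 calls with CGRP, 1607 to 4285 between the 2-DG and high-glucose controls, and 164 to 596, 13 to 336 and 435 to 1005 for the differences. Of the 9 genes, 0 to 1 were then called between those controls, and 0 to 2 and 0 to 1 for the first 2 differences.

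Signs turned only where no call had been made. Without both libraries, IL1A (-0.018) and IL1B (0.022) turned for 2-DG minus deprived, IL1RAP for 2-DG against deprived (0.032), IL18 with CGRP in 2-DG medium (0.11) and for 2-DG minus high glucose (0.055), and IL36G with CGRP in deprived medium (0.18). Scaling by total counts turned IL1RN for 2-DG minus high glucose (0.0026), and IL1RAP with deprivation (-0.0011), for 2-DG against deprived (0.014) and for 2-DG minus high glucose (0.026). Leaving out single libraries spanned 0 for IL1A (-0.020 to 0.032), IL1B (-0.078 to 0.019), IL18 (-0.012 to 0.29) and IL33 (-1.23 to 0.035) for 2-DG minus deprived. For 2-DG minus high glucose it did for IL1RN (-0.11 to 0.017), IL1RAP (-0.11 to 0.060), IL18 (-0.19 to 0.055) and IL33 (-0.46 to 0.24), and for deprived minus high glucose for IL33 (-0.22 to 1.04). With CGRP it did for IL1R2 (-0.40 to 0.082), IL18 (-0.0074 to 0.10) and IL33 (-0.35 to 0.34) in high glucose, IL1RL1 (-0.17 to 0.21), IL33 (-0.15 to 1.116) and IL36G (-0.35 to 0.23) in deprived medium, and IL18 (-0.14 to 0.11) and IL33 (-0.36 to 0.24) in 2-DG medium. Between controls it did for IL1RN (-0.066 to 0.065), IL1RAP (-0.0015 to 0.16) and IL33 (-0.30 to 0.40) of 2-DG against high glucose, and IL1RAP of 2-DG against deprived (-0.16 to 0.032).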
